A study of Mus musculus with 35 samples.

Results

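Microglia were sorted from the cerebellum of 9-week-old mice that lacked Csf1 in the neural lineage and of their controls, and their RNA was sequenced; 6 of the 35 libraries of the study belong to this experiment. All 9670 genes of its expression table were taken. The mutants carried a Nestin-Cre transgene and the floxed Csf1 allele on both chromosomes (NesCre Csf1fl/fl; libraries numbered 1, 3 and 4), and the controls carried the floxed allele without the recombinase (Csf1fl/fl; libraries 1, 2 and 3). The design text calls the 3 libraries of each group biological replicates; the sources used here do not give sex, litter or pooling. Beside them stand 3 sets of libraries used only for differences between effects: the same genotypes in the cerebellum at postnatal day 8 (P8; 3 NesCre and 3 control), the same genotypes in the forebrain at 9 weeks (4 NesCre and 3 control), and 9-week cerebellum of mice with both Il34 alleles disrupted by LacZ (Il34Lacz/Lacz) and of Il34wt/wt controls (2 of each).

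Microglia are the resident macrophages of the brain. Their survival depends on the receptor tyrosine kinase CSF1R, which binds both CSF1 and IL-34, and in the brain these ligands come largely from cells other than microglia. Nestin-Cre acts in neural progenitors and their descendants, so neurons and the glia made from those progenitors lose Csf1, while microglia, which come from the yolk sac, keep an intact gene, as do vessels and blood cells. The level of Csf1 in the sorted cells is therefore no check of the deletion, and none of the libraries reports on the cells that lost it.

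The 6 libraries held between 995596 and 1631725 reads in the genes of the table. Values are normalised reads, in which 1 read was worth 0.829 to 1.35 units. All 20 microglia markers chosen for the check of the label were measured, and their summed level was 84785 to 88242 in controls and 80707 to 87181 in NesCre libraries. Of the markers of other cells, 6 of 18 for border macrophages were in the table, 4 of 21 for monocytes, 10 of 21 for neutrophils, 1 of 22 for lymphocytes, 1 of 9 for red cells, 7 of 23 for astrocytes, 4 of 29 for neurons, 5 of 19 for oligodendrocytes and 17 of 22 for endothelium and pericytes. On the first principal component of log2 values, with 29.0% of the variance, control 2 stood apart at 36.3 while the other 5 libraries lay between -20.5 and 5.99. The second component, with 20.9%, placed the controls between -20.7 and -10.1 and the NesCre libraries at 8.05 or higher. Both were computed over all genes, some of them listed only through the group where they are high, so this separation supports nothing. Mean correlations of controls 1, 2 and 3 with their own group were 0.933, 0.923 and 0.938. With the NesCre group they were 0.943, 0.930 and 0.942. NesCre 1, 3 and 4 had 0.948, 0.947 and 0.946 with their own group and 0.939, 0.939 and 0.937 with controls.

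No gene passed an adjusted p of 0.05 in limma's test (0 of 9670, 0.0%), and what follows describes levels and leanings of named genes rather than called changes. At an unadjusted p under 0.05 there were 408 genes (4.22%), of which 218 were higher (2.25%) and 190 lower (1.96%) in the NesCre libraries. All 3 NesCre libraries lay above all 3 controls for 516 genes (5.34%) and below them for 453 (4.68%). Control 2 bore on the count: without it 3 genes passed, all higher in NesCre, namely Apoe, the interleukin-18 receptor subunit gene Il18rap and BC025920 (adjusted p = 0.0280 for each). The table lists a gene only if it exceeds 10 throughout 1 group, and 472 genes did so only in the NesCre libraries and 346 only in the controls, so that these had to differ and their separation supports nothing. Among genes named here this holds for Cpe, Igf1, Cst7, Slc1a2, Spp1, Il18rap and BC025920 on the NesCre side and for Il34, Ifit1, Tgfb1, S100a8, Ngp, Chil3, Ttr and Enpp2 on the control side. Of the 8852 genes above 10 in both groups, 163 were higher (1.84%) and 151 lower (1.71%) at an unadjusted p under 0.05. The precision followed the level: the median standard error (SE) of a log2 change was 0.40 for the 1116 genes with a mean under 20 normalised reads, 0.21 for the 4257 genes between 50 and 200, and 0.11 for the 125 genes above 1000.

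The receptor and its ligands came first. Csf1r, the receptor through which microglia receive the missing signal (chromosome 18, 61100598 to 61132149, mm10), stood at 15823, 15015 and 16258 normalised reads in controls 1, 2 and 3 and at 14631, 14626 and 15843 in NesCre 1, 3 and 4 (log2 change -0.06, SE 0.09, adjusted p = 0.980). Csf1 itself (chromosome 3, 107741048 to 107760469) was at 37.9, 25.6 and 48.6 in controls and 38.1, 27.6 and 38.2 in NesCre libraries (-0.07, SE 0.30). Il34, the second ligand (chromosome 8, 110741829 to 110805924), stood at 11.3, 11.7 and 13.6 in controls and 9.88, 10.3 and 10.1 in NesCre libraries, which is 9 to 13 reads per library (-0.25, SE 0.38). The groups overlapped for Csf1r and Csf1 and lay apart for Il34 by about 1 unit.

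Downstream of the receptor, 29 genes of CSF1R signalling were measured, from the adaptor Grb2 to the survival factor Mcl1, of which 10 had positive and 19 negative log2 changes (median -0.06), beside 50.6% positive and a median of 0.00 over all genes. Maf, a transcription factor of macrophages, was positive, with 412, 330 and 453 in controls and 414, 517 and 580 in NesCre libraries (0.34). The identity genes of microglia differed little: of the 20 markers, 7 had positive and 13 negative changes, with a median of -0.03, none at an unadjusted p under 0.05. The purinergic receptor P2ry12 was 5646, 5466 and 5898 in controls and 4794, 5040 and 5298 in NesCre libraries (-0.17), and the fructose transporter Slc2a5 was 519, 538 and 500 against 414, 453 and 460 (-0.23). Of the 20 markers, these 2 were the ones whose libraries did not overlap, both lower in NesCre. Among all genes, 4.68% were lower without overlap. Whether 2 of 20 exceeds that share was not tested.

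Among genes higher in NesCre, with a mean of at least 20 there and no overlap between groups, Cpe had the smallest p, though it is listed only through the NesCre libraries. It encodes carboxypeptidase E, which trims peptide hormones and neuropeptides (chromosome 8, 64592542 to 64693054). Its normalised reads were 6.96, 4.73 and 4.14 in controls and 27.3, 22.5 and 25.8 in NesCre libraries, which is 3 to 8 reads against 22 to 31 (log2 change 2.08, SE 0.39, adjusted p = 0.380). Cpe was also on the astrocyte list, since astrocytes and neurons express it. The 7 astrocyte markers measured all had positive changes (median 0.21; 0.66 without NesCre 3), Cpe and Slc1a2 being listed only through the NesCre libraries. The level of a list is the mean over members of log2 values relative to the 6 libraries. For astrocyte markers it was -0.26, -0.18 and -0.35 in controls and 0.32, -0.11 and 0.58 in NesCre 1, 3 and 4. It did not overlap, but it includes Cpe and Slc1a2, so this supports nothing. Of the 5 members above 10 in both groups (median 0.19), 0 had groups that did not overlap. The summed level of the 7 markers was 2295 to 4162 in controls and 3862 to 5289 in NesCre libraries, mostly Apoe, and their part in the value of Cpe was not tested. The glutamate transporter genes Slc1a2 and Slc1a3 had log2 changes of 0.55 and 0.19: Slc1a2 was 6.11, 19.8 and 8.19 against 10.96, 12.3 and 25.8, and Slc1a3 166, 137 and 143 against 205, 131 and 181. The glutamine synthetase gene Glul was 364, 301 and 252 against 364, 288 and 274 (0.02).

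Several immune receptors and secreted factors stood higher in every NesCre library. C3ar1, the receptor for the complement fragment C3a (chromosome 6, 122847138 to 122856161), was 722, 891 and 799 in controls and 1012, 1177 and 1278 in NesCre libraries (log2 change 0.52, SE 0.12, adjusted p = 0.973). C5ar1, the receptor for C5a, was 318, 293 and 360 against 391, 407 and 376 (0.28, SE 0.13). For both receptors the lowest NesCre library was above the highest control. Of the 9 complement genes measured, 7 had positive changes (77.8%, against 50.6% of all genes), with a median of 0.12. These 2 receptors were the ones at an unadjusted p under 0.05 in limma's test (22.2%, against 2.25% of all genes higher). The C1q subunits, which microglia make in quantity, had groups that overlapped: C1qb was 7553, 7184 and 8310 against 7708, 9002 and 8825 (0.15), and C1qc varied more within groups, with 4261, 3410 and 5392 against 4017, 5486 and 3216 (-0.05).

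Cd72, a lectin-like receptor best known from B cells, was 27.6, 37.2 and 45.9 in controls and 71.8, 66.3 and 86.3 in NesCre libraries (log2 change 1.02, SE 0.25). The chemokine gene Ccl4 was 292, 308 and 355 in controls and 394, 486 and 525 in NesCre libraries (0.55, SE 0.14). Neither pair of groups overlapped. Its neighbour in function Ccl3 was 394, 511 and 669 against 620, 644 and 778 (0.40), with overlap. Over the 27 cytokine and chemokine genes measured, 11 changes were positive and 16 negative (median -0.05). The leukocyte receptor Lilra5 (43.0, 74.2 and 56.7 against 115, 91.8 and 93.8; 0.81), the glucose transporter Slc2a1 (51.6, 31.4 and 68.9 against 85.9, 96.9 and 90.5; 0.90) and the membrane-binding protein Anxa5 (121, 143 and 101 against 169, 171 and 189; 0.54) had the same pattern of separate groups.

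In the opposite direction, the smallest p belonged to Csmd3, a large transmembrane protein with CUB and sushi domains (chromosome 15, 47580637 to 48792063). It stood at 190, 301 and 151 normalised reads in controls and 92.5, 91.8 and 57.3 in NesCre libraries (log2 change -1.37, SE 0.25, adjusted p = 0.380). The receptor tyrosine phosphatase gene Ptprm (chromosome 17, 66666947 to 67354457) was 157, 126 and 159 against 102, 72.4 and 66.4 (-0.89, SE 0.20, adjusted p = 0.973). Arhgap39, a GTPase-activating protein (chromosome 15, 76723985 to 76818170), was 195, 184 and 170 against 128, 116 and 87.2 (-0.74, SE 0.18). Each of these 3 genes was lower in every NesCre library than in any control. The same held for the histone H3 methyltransferase Dot1l (52.4, 52.2 and 44.6 against 20.7, 24.6 and 28.3), the sialomucin Cd34 (543, 562 and 612 against 461, 313 and 426; -0.53) and the actin-bundling protein Fscn1 (289, 225 and 231 against 159, 176 and 188; -0.50).

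**Figure D1:**
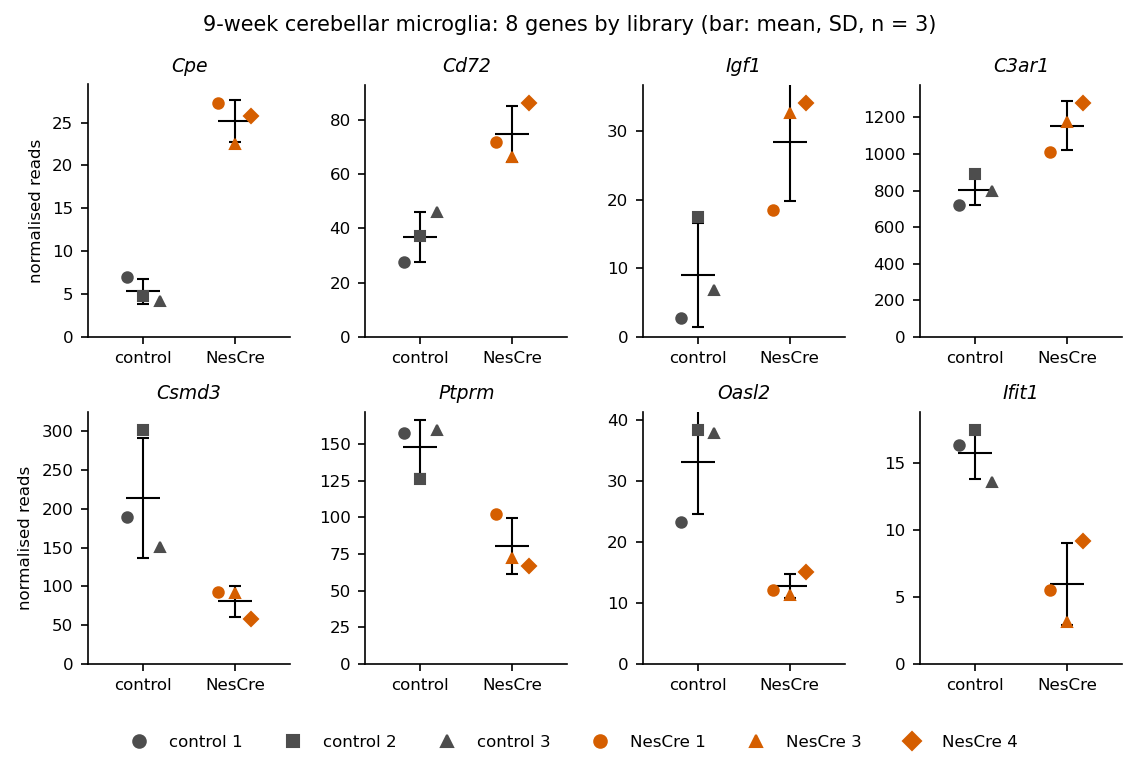
Normalised reads (vertical axes, from 0) of 8 genes in the 3 control and the 3 NesCre libraries; each point is 1 library and the bars give mean and SD. Cpe, Cd72, Igf1 and C3ar1 are higher in every NesCre library than in any control, and Csmd3, Ptprm, Oasl2 and Ifit1 are lower. Cpe and Igf1 are listed only through the NesCre libraries and Ifit1 only through the controls, so their separation supports nothing.

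The disease-associated microglia list holds genes that microglia raise around plaques, in demyelination and in aged or phagocytic states. Of its 32 measured members, 23 had positive and 9 negative changes, with a median of 0.19; 6 were higher at an unadjusted p under 0.05, or 18.8% against 2.25% of all genes, and none was lower. Of these members 5 are listed only through the NesCre libraries; among the 27 above 10 in both groups, 18 were positive and 9 negative (median 0.17), and 4 were higher at that p (14.8%, against 1.84%). Igf1, a growth factor (chromosome 10, 87858265 to 87937042), was 2.67, 17.5 and 6.84 in controls and 18.6, 32.7 and 34.1 in NesCre libraries, or 3 to 15 reads against 17 to 41 (log2 change 1.81, SE 0.51, adjusted p = 0.973). Apoe, the main lipid carrier of the brain (chromosome 7, 19696109 to 19699188), was 1619, 3606 and 2286 in controls and 3090, 3775 and 4559 in NesCre libraries (0.66, SE 0.21; 0.97 and adjusted p = 0.0280 without control 2, 0.39 without control 1). The cystatin gene Cst7 was 9.54, 21.0 and 5.49 against 34.9, 15.4 and 26.6 (1.14). Of these, Igf1 alone had groups that did not overlap, and both Igf1 and Cst7 are listed only through the NesCre libraries. The tetraspanin genes Cd63 (465, 555 and 553 against 549, 790 and 647; 0.32) and Cd9 (1935, 1933 and 2087 against 2055, 2361 and 2596; 0.23) and the lysosomal protease gene Ctsb (5880, 5704 and 5741 against 6050, 6842 and 6905; 0.19) showed smaller differences.

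Control 1 stood low for part of this list. Over all 32 members the level of the list there was -0.44, beside -0.00 and 0.01 in controls 2 and 3. It was 0.14, 0.19 and 0.10 in the NesCre libraries, through which alone 5 members are listed. Spp1 (osteopontin) had no read in control 1, which allows up to 2.57 normalised reads, and stood at 23.3 and 37.8 in the other controls and 24.0, 16.4 and 15.9 in NesCre libraries. Genes of MHC class II were low in the same library: H2-Aa was 13.8 in control 1, 276 and 212 in controls 2 and 3, and 229, 196 and 91.3 in NesCre libraries, and Cd74, the invariant chain, was 63.6, 290 and 351 against 388, 481 and 196. Without control 1 the median of the disease-associated list was 0.20, with 23 positive and 9 negative changes.

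Lipid efflux genes, the targets of liver X receptors and the carriers that move cholesterol out of the cell, leaned the same way. Of 20 measured members, all above 10 in both groups, 16 were positive (80.0%, against 50.6% of all genes) and 4 negative (median 0.21). At an unadjusted p under 0.05, 3 were higher and 3 lower (15.0% each, against 2.25% and 1.96%). The cholesterol exporter gene Abca1 was 236, 289 and 251 in controls and 301, 322 and 401 in NesCre libraries (log2 change 0.39, SE 0.15), and the phospholipid transfer protein gene Pltp was 184, 143 and 198 against 303, 199 and 227 (0.46, SE 0.18). Both were higher in every NesCre library. Members on the other side included the uptake receptor Lrp1 (859, 988 and 884 against 769, 688 and 829; -0.26) and the lysosomal cholesterol transporter Npc1 (155, 158 and 134 against 93.5, 106 and 134; -0.43). Cholesterol synthesis genes did not lean: 8 of 18 were positive and 10 negative (median -0.05; 0.26 among those with a mean of at least 50), although Fdft1, the squalene synthase gene, was 44.7, 51.1 and 59.4 against 64.2, 77.5 and 99.6 (0.61). For the 38 lysosome and protease genes 26 were positive, with a median of 0.07.

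Interferon-stimulated genes, the antiviral program that interferons switch on, leaned towards lower values. Of 37 measured members, 7 had positive and 30 negative changes (median -0.24), against 49.4% negative among all genes; 5 were lower at an unadjusted p under 0.05 (13.5% of them, against 1.96% of all genes) and none higher. Of these members 4 are listed only through the controls; among the 33 above 10 in both groups, 7 were positive and 26 negative (median -0.24), and 4 were lower at that p (12.1%, against 1.71%). Oasl2, a relative of the oligoadenylate synthetases (chromosome 5, 114896936 to 114912234), was 23.3, 38.3 and 37.8 in controls and 12.1, 11.3 and 15.0 in NesCre libraries (log2 change -1.28, SE 0.34, adjusted p = 0.973). Ifit1, which binds viral RNA lacking a host cap (chromosome 19, 34640871 to 34650009), was 16.4, 17.5 and 13.6 against 5.53, 3.16 and 9.22, or 10 to 19 reads against 3 to 11 (-1.36, SE 0.44). The chaperone gene Rtp4 was 67.9, 53.4 and 75.6 against 52.3, 38.8 and 32.4 (-0.67, SE 0.25). All 3 were lower in every NesCre library than in any control, which for Ifit1, listed only through the controls, supports nothing. Over all 37 members, with the 4 listed only through the controls, the level of the list was 0.07, 0.11 and 0.23 in controls. It was -0.00, -0.22 and -0.18 in NesCre 1, 3 and 4. The median of the list stayed between -0.28 and -0.18 in every alternative.

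The promoters of these genes are shown because members of the list lean together. A motif of 2 copies of GAAA separated by any 2 bases, the core of the interferon-stimulated response element, was searched on both strands in RefSeq promoter windows (GRCm38.p6, 250 bases before to 50 after a start). Of the 37 genes, 25 had a window there and 14 of these held the motif (56.0%), against 3.66% of the 7441 table genes with a window and 3.99% of all 27025 genes. Matches are in capitals; where the motif lies on the other strand the capitals read its reverse complement, with TTTC in place of GAAA. The windows are those of the 4 motif-bearing members of smallest unadjusted p: Ifit1 at chr19:34640639-34640938 on the plus strand, and Ifitm3 at chr7:141010695-141010994, Slfn8 at chr11:83020673-83020972 and Trim30a at chr7:104446076-104446375 on the minus strand, each written along its gene.
Ifit1: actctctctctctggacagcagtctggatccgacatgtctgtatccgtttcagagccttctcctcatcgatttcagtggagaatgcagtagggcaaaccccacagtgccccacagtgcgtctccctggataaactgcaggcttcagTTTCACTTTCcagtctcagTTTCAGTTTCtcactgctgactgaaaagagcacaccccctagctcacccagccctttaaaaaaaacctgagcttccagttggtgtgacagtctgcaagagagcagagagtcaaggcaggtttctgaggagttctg
Ifitm3: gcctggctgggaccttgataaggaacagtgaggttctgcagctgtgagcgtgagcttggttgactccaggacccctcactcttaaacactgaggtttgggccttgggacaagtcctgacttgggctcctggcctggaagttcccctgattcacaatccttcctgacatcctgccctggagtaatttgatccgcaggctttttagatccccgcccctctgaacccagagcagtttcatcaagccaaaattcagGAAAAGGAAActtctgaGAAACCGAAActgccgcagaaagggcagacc
Slfn8: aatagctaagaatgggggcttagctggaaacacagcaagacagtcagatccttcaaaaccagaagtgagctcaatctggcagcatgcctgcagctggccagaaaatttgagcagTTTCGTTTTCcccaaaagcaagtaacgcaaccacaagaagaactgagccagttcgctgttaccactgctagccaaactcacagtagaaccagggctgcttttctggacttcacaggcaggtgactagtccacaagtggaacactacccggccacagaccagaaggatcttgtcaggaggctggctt
Trim30a: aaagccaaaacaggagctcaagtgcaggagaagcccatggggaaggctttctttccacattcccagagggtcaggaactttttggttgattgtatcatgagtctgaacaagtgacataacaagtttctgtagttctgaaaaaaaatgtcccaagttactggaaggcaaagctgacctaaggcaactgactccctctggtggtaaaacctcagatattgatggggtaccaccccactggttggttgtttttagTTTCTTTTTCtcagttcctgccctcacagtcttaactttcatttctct
Ifit1 holds 2 matches upstream of its start and Ifitm3 holds 2 just after it. Ifitm3, a membrane protein that blocks viral entry, was 35.3, 55.7 and 43.2 in controls and 50.1, 18.4 and 24.2 in NesCre libraries (log2 change -0.62). Slfn8 was 155, 140 and 146 against 123, 137 and 106 (-0.28), and Trim30a 133, 137 and 154 against 146, 108 and 108 (-0.24). The presence of the motif did not go with a larger change: 10 of the 14 members with it were negative (median -0.22), and 8 of the 11 with a window and no match (median -0.23). A match is a run of letters and not a shown binding site.

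**Figure D2:**
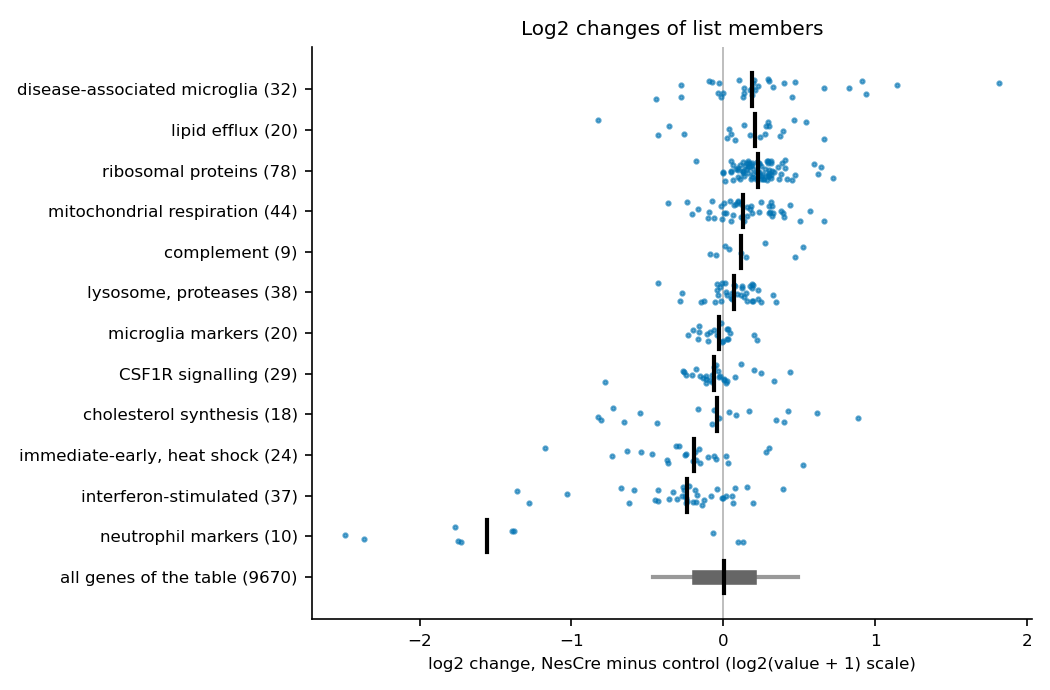
Log2 change (NesCre minus control, horizontal axis) of each measured member of 12 gene lists, with the number of members in brackets; black ticks are medians, and the last line shows all 9670 genes by the percentiles 25 to 75 (thick) and 5 to 95 (thin). Ribosomal protein, lipid efflux and disease-associated genes have medians of 0.23, 0.21 and 0.19, interferon-stimulated genes of -0.24 and neutrophil markers of -1.56.

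Ribosomal protein genes leaned almost all one way. Of 78 genes, 75 were positive and 3 negative, with a median log2 change of 0.23; 17 were higher at an unadjusted p under 0.05 (21.8%, against 2.25%) and 22 had groups that did not overlap (28.2%, against 5.34%). Rpl37a was 148, 147 and 124 in controls and 201, 228 and 226 in NesCre libraries (0.64, SE 0.15), and Rps20 was 135, 162 and 143 against 243, 234 and 190 (0.59, SE 0.16). The library levels were less clear than the count: -0.27, 0.06 and -0.15 in controls and 0.08, 0.20 and 0.08 in NesCre libraries, so that control 2 nearly reached NesCre 1 and 4. These transcripts are short, and most have processed pseudogenes with which reads can be shared, so single values are uncertain. Subunits of the respiratory chain went with them in direction: 34 of 44 were positive (77.3%, against 50.6% of all genes), with a median of 0.13. Groups did not overlap for 5 higher members (11.4%, against 5.34% of all genes) and 2 lower ones (4.55%, against 4.68%). Uqcrb of complex III (0.51) and Ndufa2 of complex I (0.66) were among the higher, and Atp5a1 (-0.21) among the lower. Cycs, the cytochrome c gene, was 82.5, 104 and 45.9 against 120, 114 and 96.3 (0.57).

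Immediate-early and heat-shock genes, which respond within minutes to stimuli that include tissue dissociation, leaned down: 5 of 24 were positive and 19 negative (median -0.19), with 4 lower and 1 higher at an unadjusted p under 0.05 (16.7% and 4.17%, against 1.96% and 2.25% of all genes). Klf2, a transcription factor that restrains inflammation, was 64.5, 29.1 and 62.1 in controls and 17.5, 17.4 and 30.8 in NesCre libraries (log2 change -1.17, SE 0.35). Jun was 3631, 3183 and 3829 against 2874, 2949 and 3106 (-0.25, SE 0.10), and the chaperone gene Dnajb1 was 237, 248 and 218 against 192, 168 and 186 (-0.36, SE 0.14). Jun and Dnajb1 were lower in every NesCre library, and Klf2 overlapped by 1 control. Dusp1, which encodes a phosphatase, went the other way with 1219, 922 and 969 against 1448, 1086 and 1301 (0.30). The level of the list was 0.20, -0.05 and 0.18 in controls and -0.15, -0.11 and -0.07 in NesCre libraries. This level includes 1 member listed only through the controls.

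**Figure D3:**
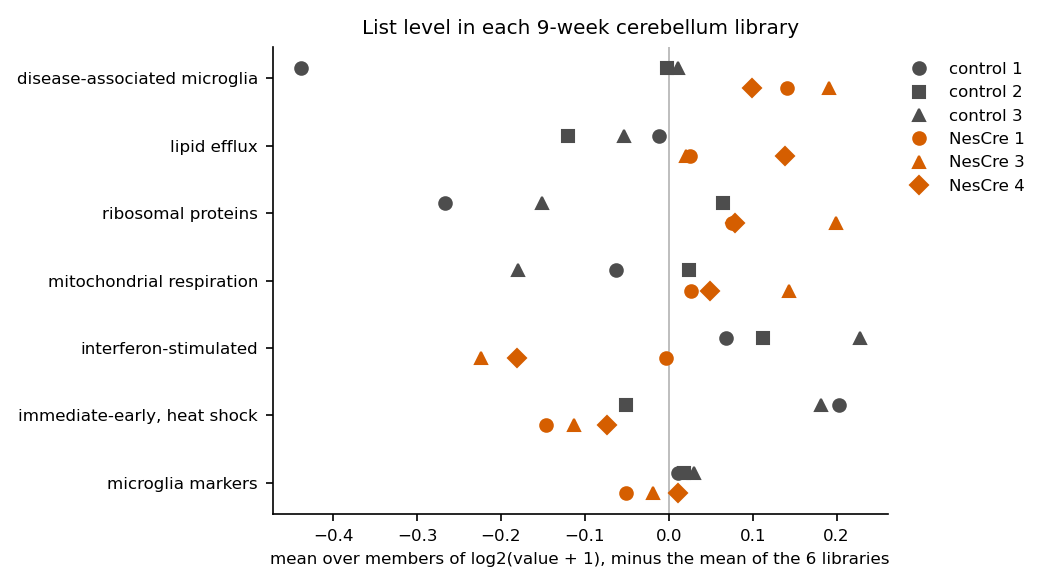
Level of 7 lists in each library (horizontal axis: mean over members of log2(value + 1), minus the mean of the 6 libraries; points are libraries, grey for control and orange for NesCre). The NesCre libraries lie to the right of all controls for the disease-associated, lipid efflux, ribosomal and respiratory lists and to the left for the interferon-stimulated and immediate-early lists. Gaps are small for the ribosomal, respiratory and immediate-early lists, where control 2 is nearest (-0.05 beside -0.07 in NesCre 4 for immediate-early). The gap is also small for lipid efflux, with -0.01 in control 1 and 0.02 in NesCre 3. Levels are over all members, of which 5 disease-associated and 1 ribosomal are listed only through the NesCre libraries. Of the interferon-stimulated members 4, and of the immediate-early members 1, are listed only through the controls. How far the separation of these lists rests on such members was not tested.

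The remaining lists leaned less. Median log2 changes were 0.13 for antigen presentation (14 of 21 positive), 0.13 for the cell cycle (12 of 18), 0.05 for glycolysis and hypoxia (16 of 22), -0.07 for phagocytosis receptors (9 of 24) and -0.11 for TGF-beta signalling (7 of 18). Over the alternatives the first of these ran from 0.01 to 0.18 and the second from 0.02 to 0.28. In the last of these Tgfb1, the ligand that maintains microglial identity, was 22.4, 19.8 and 29.8 in controls and 9.88, 12.3 and 17.5 in NesCre libraries (-0.83, SE 0.36), with no overlap, and is listed only through the controls. The median was 0.01 for 6 border macrophage markers, -0.25 for 4 monocyte, -0.04 for 17 endothelial and pericyte, -0.08 for 4 neuronal and -0.07 for 5 oligodendrocyte markers, and the single lymphocyte and red cell genes, Cd79b and Bpgm, had 0.05 and -0.48. Over the alternatives the medians ran from -0.25 to 0.32 for border macrophage, -0.66 to 0.21 for monocyte, -0.17 to 0.39 for endothelial and pericyte, -0.38 to 0.17 for neuronal and -0.26 to 0.15 for oligodendrocyte markers, so that none of these has a settled sign.

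Neutrophil markers had the most negative median, -1.56 over 10 genes, and it rested on 1 library. S100a8, a calcium-binding protein of granulocytes, was 114, 130 and 225 in controls and 93.5, 173 and 4.25 in NesCre 1, 3 and 4. The granule gene Ngp was 109, 140 and 332 against 161, 307 and 1.76, and Chil3 39.6, 39.5 and 91.8 against 19.7, 36.8 and no read. These granule transcripts were thus present in 5 libraries and nearly absent from NesCre 4, whereas Csf3r, a receptor of the list with high values throughout, was 664, 823 and 866 against 775, 853 and 871 (0.09). Without NesCre 4 the median of the list was -0.09, with 5 positive and 5 negative changes, and over the 4 markers above 10 in both groups it was 0.01.

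**Figure D4:**
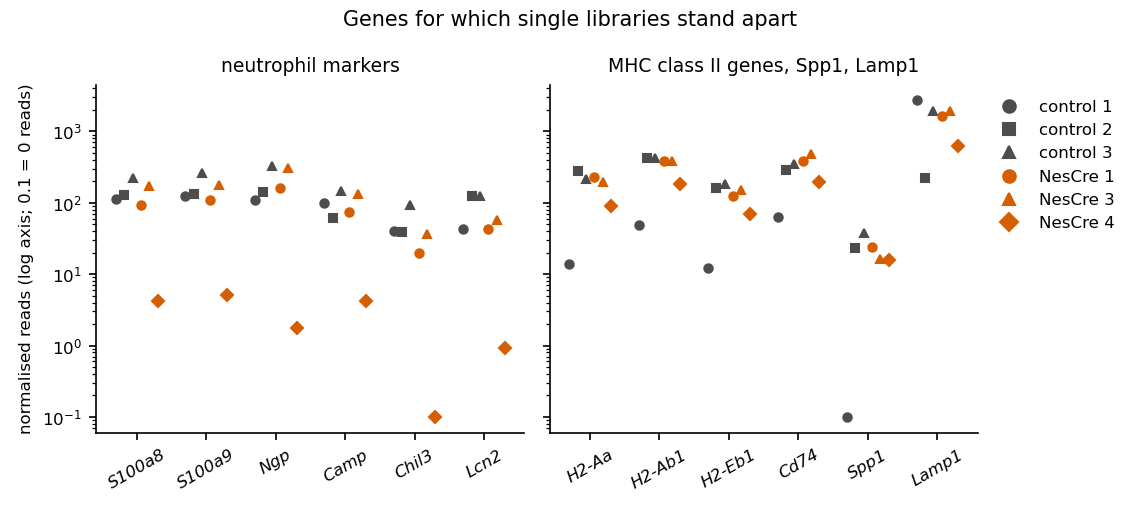
Normalised reads (log axis, where 0.1 stands for no read) of 6 neutrophil markers and of MHC class II genes, Spp1 and Lamp1 in each of the 6 libraries. NesCre 4 lies far below the other libraries for the neutrophil genes, control 1 for the MHC class II genes and Spp1, and control 2 for Lamp1.

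The Csf1 effect at 9 weeks was then set against that in the cerebellum at P8, where 34 of 8539 genes were called (0.398%). A test of the difference of effects over the 8205 genes in both tables called 3 genes (0.0366%), and 704 were at an unadjusted p under 0.05 (8.58%; 366 positive, 4.46%, and 338 negative, 4.12%). The count of 3 was sensitive to single 9-week libraries: it was 6 without control 1, 52 without control 2 and 1 without NesCre 4. The age groups share no library. Jam2, an adhesion molecule of cell junctions, stood at 210, 187 and 175 in 9-week controls and 203, 205 and 199 in NesCre libraries (log2 change 0.09), while its change at P8 was -1.76, and the difference was 1.85 (SE 0.27, adjusted p = 0.00597). Markers of endothelium and pericytes moved with Jam2: the 5 measured at both ages had a median change of 0.49 at 9 weeks and -1.18 at P8, and for 4 of them the difference was positive at an unadjusted p under 0.05. Cldn5, a tight-junction gene of endothelium, averaged 7.20 in NesCre and 118 in control libraries at P8 and differed between ages by 3.78 (SE 1.01, adjusted p = 0.194), and Pecam1, an endothelial adhesion gene, by 1.48 (SE 0.51, adjusted p = 0.335). With that mean, Cldn5 did not exceed 10 throughout the P8 NesCre group. If the P8 genes were filtered as at 9 weeks, members listed only through the controls had to be lower in P8 mutants. Which of the 5 this holds for was not checked, so these differences support nothing. The part of these markers in the value of Jam2 was not tested. Cd9 had a change of 0.23 at 9 weeks and -0.95 at P8, a difference of 1.18 (SE 0.19, adjusted p = 0.00971). Ier2, an immediate-early gene, stood at 446, 351 and 605 against 346, 525 and 271 at 9 weeks (-0.31) and had a change of 1.89 at P8, a difference of -2.21 (SE 0.37, adjusted p = 0.0133). All 3 were among the genes called at P8. Jam2 and Cd9 were lower and Ier2 higher in the P8 mutants, and at 9 weeks their libraries overlapped. Of the 30 genes called higher at P8, 9 had positive and 21 negative changes at 9 weeks (median -0.05), none at an unadjusted p under 0.05. Their level was lowest in control 2 (-0.61) and NesCre 4 (-0.45), as for the lysosomal membrane gene Lamp1 with 2721, 220 and 1924 in controls and 1624, 1938 and 615 in NesCre libraries. The 4 genes called lower at P8 had positive changes at 9 weeks (median 0.20), but for Spp1, with no read in control 1, the change was -0.66 without that library.

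The disease-associated list had opposite medians at the 2 ages, 0.19 at 9 weeks and -0.42 at P8 over 32 genes. For 20 of them the difference was positive at an unadjusted p under 0.05 and for 1 negative; Cd9 was the one called. The protease gene Ctsd stood at 19863, 16802 and 17502 in controls and 19688, 20496 and 20715 in NesCre libraries at 9 weeks. It differed between ages by 0.80 (adjusted p = 0.0507 in limma's test), Igf1 by 2.56 (0.0604) and Apoe by 1.11 (0.0889), none of them called. Lipid efflux genes had medians of 0.21 and -0.26, with 10 positive and 2 negative differences among 20. Interferon-stimulated genes had -0.25 and 0.26 over 29 genes, with 9 negative differences and no positive one, and none of them was called. Over all 8205 genes the medians were 0.00 and -0.02. The P8 changes of these lists were known when the lists were chosen, so their sign at P8 and these counts of differences, which contain the P8 values, are descriptions and support nothing.

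**Figure D5:**
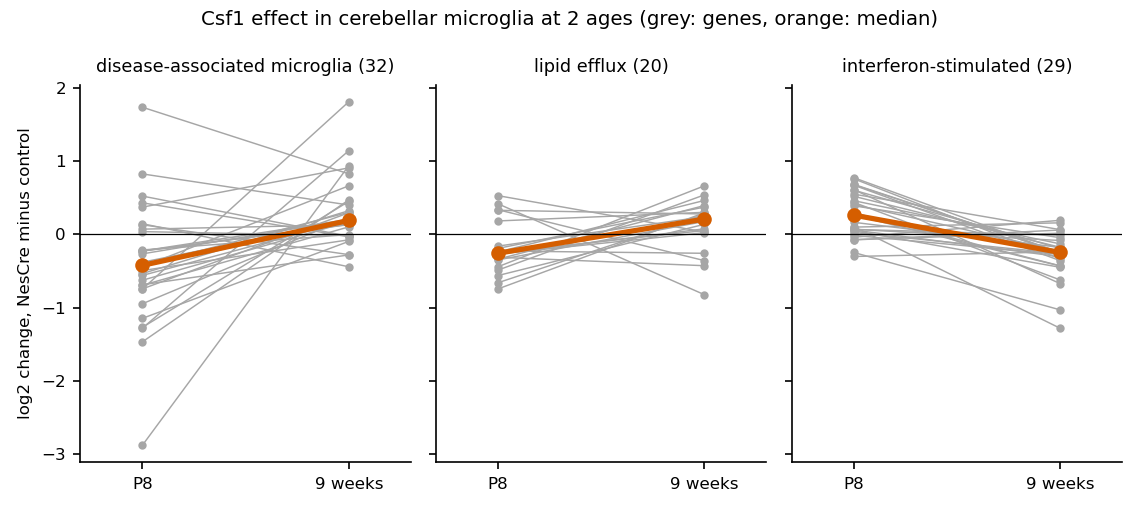
Log2 change (NesCre minus control, vertical axis) of each member of 3 lists in cerebellar microglia at P8 and at 9 weeks; grey lines join the 2 values of a gene and the orange line joins the medians. The medians run from -0.42 to 0.19 and from -0.26 to 0.21 for the disease-associated and lipid efflux lists, and from 0.26 to -0.25 for the interferon-stimulated list.

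Against the forebrain at 9 weeks no difference of effects was called (0 of 9156, 0.0%), with 359 genes at an unadjusted p under 0.05 (3.92%; 179 positive, 1.96%, and 180 negative, 1.97%). Whether both regions came from the same mice is not given. Csmd3 had a log2 change of -0.49 in the forebrain beside -1.37 in the cerebellum (difference -0.88, SE 0.34, adjusted p = 0.999), Cpe 0.84 beside 2.08, Oasl2 -0.85 beside -1.28, C3ar1 0.17 beside 0.52 and Apoe 0.29 beside 0.66. These 5 genes had the same sign in both regions and the smaller value in the forebrain. They were named for their values in the cerebellum, so a smaller change in the forebrain supports nothing. Ptprm, also named for its value in the cerebellum, had 0.11 beside -0.89. Median changes in forebrain and cerebellum were 0.10 and 0.19 for disease-associated genes, 0.12 and 0.24 for 19 lipid efflux genes and -0.11 and -0.24 for interferon-stimulated genes, whereas ribosomal protein genes had -0.00 and 0.23.

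Loss of the other ligand gave the last comparison. Between the effects of Csf1 and Il34 in the 9-week cerebellum no difference was called (0 of 8743, 0.0%), with 465 genes at an unadjusted p under 0.05 (5.32%; 199 positive, 2.28%, and 266 negative, 3.04%), and the Il34 groups held 2 libraries each. Without NesCre 3 the difference of Ttr, the transthyretin gene, passed (adjusted p = 0.000484); Ttr had no read in NesCre 3. Csmd3 had a log2 change of 0.25 with Il34 loss beside -1.37 with Csf1 loss (difference -1.63, SE 0.47, adjusted p = 0.907), Ptprm 0.53 beside -0.89 and C3ar1 -0.07 beside 0.52. Oasl2 had 0.16 beside -1.28. Csmd3, Ptprm, C3ar1 and Oasl2 were named for their values with Csf1 loss, and Ptprm also for this difference, so these contrasts support nothing. The median of 34 interferon-stimulated genes was 0.07 with Il34 loss beside -0.23, with 4 negative and no positive differences at that p. Ribosomal protein genes had medians of 0.15 and 0.23, and lipid efflux genes of 0.12 and 0.24.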

How the data were processed

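Primary microglia were sorted and sequenced with a low-input protocol, per the labels' protocols. STAR 2.5.3 aligned the reads to mm10 and featureCounts assigned them, per the submitters' processing notes; for the strand setting, the annotation and the normalization the sources used here give nothing. The authors deposited a signal per gene: in each library the values are whole reads times 1 factor, plus a constant of 0.1 (100.0% of values within 0.01 reads). Each of the 9670 genes exceeds 10 throughout the control or the NesCre group; genes below that were not analysed here. Depth was 995596 to 1631725 reads per library, and a library without a read allows up to 3 reads (counting error only).

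Groups come from the titles. Limma-trend (limma 3.58.1, R 4.3.3) was fitted to log2(value + 1), 2-sided, with Benjamini-Hochberg adjusted p over the whole table called below 0.05; this scale understates changes of low genes. Each fit held the 2 groups compared; a difference of effects was a contrast of 4 group means over the genes in both tables. With cells pooled per library, fewer cells of a type and less RNA per cell cannot be told apart. Coordinates are from GENCODE vM21 (95.3% of symbols found; GRCm38 is the assembly of mm10) and promoters from RefSeq (GRCm38.p6).

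Named genes are a selection from the 12 smallest p per direction among genes with a mean of at least 20 and separate groups, from each list the 3 most abundant and up to 3 of smallest p, the ligands and receptor, up to 5 per direction for each difference, and genes called at P8. Dusp1, H2-Aa, S100a8, Pecam1, Il18rap, BC025920, Ttr and Enpp2 were named after their values were seen, and Ifitm3, Slfn8 and Trim30a for their promoters. The 25 hand-written lists, the members and the tests were chosen with earlier results of these data known. Alternatives were a pseudocount of 0.1 or 10, quantile normalization, a mean of at least 50, leaving out each library, a replicate block and, added after the data were seen, only list members above 10 in both groups. The libraries left out were those of this experiment only, also for the differences of effects. The fits were tested on simulated data.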

Additional observations from a re-analysis of the deposited data

Results flagged for a closer look

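For 3 genes the Csf1 effect in cerebellar microglia differed between 9 weeks and P8 by limma's test of the difference itself, over 8205 genes. Jam2 differed by 1.85 (adjusted p = 0.00597), Cd9 by 1.18 (adjusted p = 0.00971) and Ier2 by -2.21 (adjusted p = 0.0133). Endothelial and pericyte markers differed in the direction of Jam2, 4 of 5 at an unadjusted p under 0.05 (median difference 1.48, Cldn5 3.78), and their part in its value was not tested. Cldn5 averaged 7.20 in P8 NesCre libraries and 118 in P8 controls. If the P8 genes were filtered as at 9 weeks, members listed only through the controls had to be lower in P8 mutants, so these differences support nothing. Jam2 kept an adjusted p under 0.05 in every alternative run. Cd9 missed it without NesCre 4 (0.0754), and Ier2 missed it without control 3 (0.129), NesCre 1 (0.0750) or NesCre 4 (0.0851). At P8 the changes of Jam2, Cd9 and Ier2 were -1.76, -0.95 and 1.89, and no P8 library was left out in these runs. The 3 genes were also called at P8 on their own, and at 9 weeks their log2 changes were 0.09, 0.23 and -0.31.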

How the results depend on the processing

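The count of 0 genes for the 9-week cerebellum was the same with a pseudocount of 0.1 or 10, with quantile normalization and with a mean of at least 50, and lay between 0 and 3 when 1 library was left out. The 3 genes whose effect differed from that at P8 became 3 to 11 with those settings (3 with a pseudocount of 0.1, 5 with 10, 11 with quantile normalization, 5 with a mean of at least 50) and 1 to 52 with 1 library left out. For the difference from Il34 loss the count was 0, and 0 to 1 with 1 library left out; for the forebrain it was 0 in each of these. The edgeR and DESeq2 alternatives named in the plan were not run, so every count rests on limma alone.

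Replicate numbers do not mark a shared mouse or day in the labels, and only 1 and 3 occur in both groups. Deviations from the group means correlated at 0.03 for the libraries numbered 1 and 0.06 for those numbered 3. Pairs with different numbers ran from -0.09 to 0.11. With 3 libraries per group these values cannot decide whether a number marks a shared mouse or day. With the replicate block, which leaves 1 residual degree of freedom, 37 genes were called (21 higher, 16 lower), Ttr, H2-Aa and Cd74 first; this pairing turned Lamp1 to -0.37, Ngp to 0.22 and Cldn5 to -0.043.

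The lists for disease-associated, lipid efflux, ribosomal, interferon-stimulated and immediate-early genes had medians of the same sign in all alternatives, also among members above 10 in both groups; those for CSF1R signalling (-0.13 to 0.02), cholesterol synthesis (-0.12 to 0.26) and phagocytosis receptors (-0.11 to 0.00) did not. Leaving out 1 library turned the sign of the log2 change of 12 genes named, for which the ranges were -0.25 to 0.13 (C1qc), -0.17 to 1.17 (Cldn5), -0.12 to 0.73 (Pecam1), -0.047 to 0.19 (Cd79b), -0.32 to 0.13 (Csf1), -0.11 to 0.15 (Glul), -0.59 to 1.52 (H2-Aa), -0.88 to 0.93 (Lamp1), -3.03 to 0.37 (Ngp), -0.66 to 1.91 (Spp1), -1.80 to 1.10 (Enpp2) and -3.47 to 1.43 (Ttr); the cause was not tested. Depth limits the low genes: 1 read was worth 0.829 to 1.35 units.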

Other observations

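2 genes of the choroid plexus epithelium, a tissue next to the cerebellum, differed widely between libraries of 1 group. Ttr, the transthyretin gene, stood at 183, 190 and 276 normalised reads in controls 1, 2 and 3, at 339 and 978 in NesCre 1 and 4, and had no read in NesCre 3. Enpp2, which encodes autotaxin, was 89.3, 43.0 and 83.7 in controls and 94.6, 3.16 and 231 in NesCre 1, 3 and 4. The same library was lowest and the same library highest for both.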
